A study of Mus musculus with 48 samples.

Results

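Duodenum and ileum of newborn and day 8 mice were compared to ask how far the first week after birth changes the ileum differently from the duodenum. The comparison used 12 of the 48 RNA sequencing samples of a catalogue of mouse small intestine from birth to weaning age, namely 3 samples each of duodenum and ileum at day 0 and of duodenum and ileum at day 8. These were all the samples of both regions at those ages, taken by their labels. All mice had the genotype label C57Bl/6J, an inbred laboratory strain, with no treatment named; both sexes were used in the study, and the mice stayed with the dam at both ages. Housing was labelled standard germ-free. Each sample was whole-thickness tissue, 2 cm of bowel either just beyond the stomach outlet or just before the caecum. Usually 2 to 3 ages came from a litter. The samples of a group are numbered 1 to 3, and since no source used here says that each number is a separate animal, the p-values measure the spread between these samples.

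Regional identity of the gut is laid down before birth by transcription factors such as PDX1 and GATA4 in the duodenum and by the nested Hox clusters along the whole axis. In a suckling mouse the duodenum digests and takes up fat, sugar and peptides early in the meal's passage, while ileal cells engulf whole milk proteins into large lysosomes and recover bile acids. Milk is rich in fat and cholesterol, and cells make their own cholesterol when sterol supply is low, under the transcription factor SREBP2.

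The newborn libraries differed in content within their groups, which bears on every value at birth. Duodenum day 0 replicates 2 and 3 held both Xist, the RNA of the inactive X chromosome, at 742 and 805 CPM (counts scaled to the library's size), and the Y-linked Ddx3y at 21.0 and 24.7 CPM. Replicate 1 of both regions at day 0 had Ddx3y (66.3 and 45.0 CPM) with Xist of 4.18 and 2.03 CPM, and the other ileum libraries and all 6 day 8 libraries had Xist without Ddx3y above 0.0422 CPM. Ileum day 0 replicate 2 carried genes of the proximal gut and stomach, with Pdx1 at 6.59 CPM against 0.111 and 0.670 in the other ileum libraries of that age, and the gastric mucus peptide gene Tff2 at 17.9 CPM against 0.259 and 0.120. Duodenum day 0 replicate 1 had less Pdx1 (2.41 CPM) than replicates 2 and 3 (13.0 and 24.7). Counts of calls are therefore also given without duodenum day 0 replicates 2 and 3 and ileum day 0 replicate 2, called the 3 doubtful libraries below. The single duodenum day 0 library that is left, replicate 1, is then taken to vary like the other groups. It is the one with the least Pdx1, and its Onecut2, also a gene of the duodenum, was 133 CPM against 292 and 350 in replicates 2 and 3. That fit therefore does not settle which genes were regional at birth. It also sets a newborn duodenum library with Ddx3y and little Xist against day 8 libraries with Xist and no Ddx3y. Age and sex cannot be told apart in duodenum there. With all 12 libraries they are confounded in part, since Ddx3y above 0.0422 CPM was found at day 0 alone. Total counts ran from 17687321 to 65042327 per sample. Epithelial Epcam stood at 531.7 to 615 CPM per kilobase of transcript over the group means, whereas the smooth muscle gene Myh11 reached at most 4.14 and Acta2 at most 7.12, in samples labelled whole thickness.

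The 2 regions were further apart at day 8 than at birth. Over 18900 genes tested, the median size of the ileum against duodenum log2 difference was 0.289 at day 0 and 0.588 at day 8, and the difference was larger at day 8 for 13510 genes (71.5%). At day 0, 2394 genes (12.7%) differed between regions at an adjusted p under 0.05 in edgeR's quasi-likelihood test, 1151 higher in ileum (6.09%) and 1243 in duodenum (6.58%). At day 8 it was 9780 (51.7%), 4329 higher in ileum (22.9%) and 5451 in duodenum (28.8%). Distances between samples, taken as the SD over genes of their log2 CPM differences, ran from 0.436 to 0.844 (median 0.574) for the 9 duodenum-ileum pairs at birth. Distances within a group at that age reached 0.530 in duodenum and 0.546 in ileum. The pairs below 0.546 were those of ileum day 0 replicate 2 with duodenum replicates 1 and 2 (0.465 and 0.436). Pairs with ileum replicates 1 and 3 ran from 0.561 to 0.844. At day 8 the 9 pairs ran from 0.825 to 1.01 (median 0.903), all above the largest distance within a group of that age, 0.454. Here 3 samples against 3 cannot give an exact permutation p under 0.1, so the distances carry no test.

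**Figure D1:**
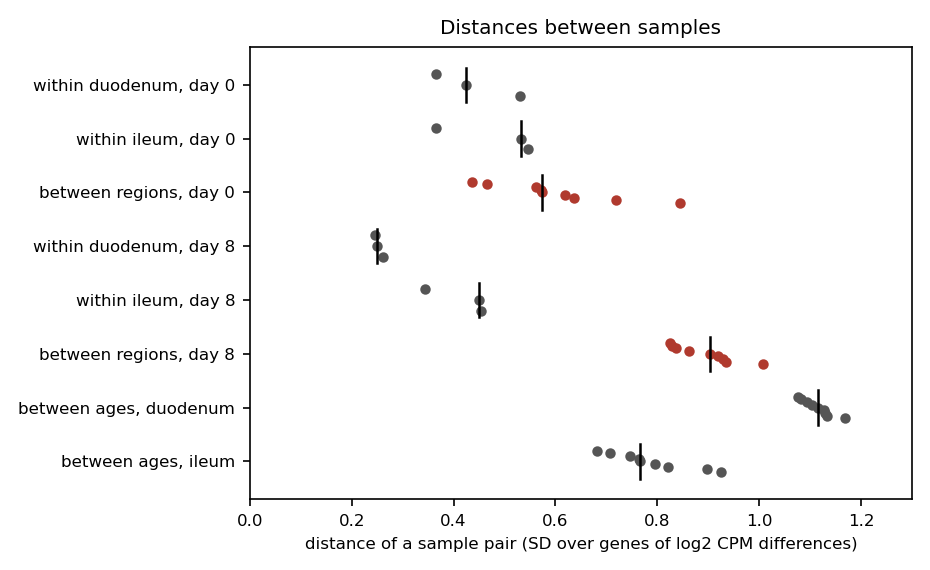
Distance between samples (horizontal axis, SD over genes of log2 CPM differences) for each pair, as points, with the median as a bar; grey pairs are within a group or between ages of a region, red pairs are between regions of an age. The red points at day 8, from 0.825 to 1.01, lie clear of the pairs within their groups. Those at day 0 overlap them through pairs of ileum day 0 replicate 2.

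The interaction, that is the day 8 minus day 0 change in ileum less the same change in duodenum, asks of each gene whether the regional difference itself changed. It was called for 4499 of 18900 genes (23.8%), 1833 in the direction of ileum (9.7%) and 2666 in that of duodenum (14.1%). Of these, 3763 (83.6%) widened, meaning that the regional difference was larger and called at day 8 without a called difference of the other sign at birth. Another 344 narrowed, being regional at birth and less so at day 8, and 136 crossed, being called at both ages with opposite signs. The widened genes comprised 1505 higher in ileum and 2258 higher in duodenum at day 8. The shares of all genes called, 9.7% toward ileum and 14.1% toward duodenum, are the background for the interaction counts of lists below. For regional counts it is 6.09% higher in ileum and 6.58% in duodenum at birth, and 22.9% and 28.8% at day 8. For age changes it is 27.9% up and 25.8% down in duodenum, and 14% and 16% in ileum. List counts without the 3 doubtful libraries stand against fewer calls over all genes, given next. Without the 3 doubtful libraries 1597 genes were called, 1244 widened and 116 narrowed, and 54% of the calls were in the direction of ileum against 40.7% with all 12. All of the 4499 genes kept their direction there, which is no separate test, since the libraries left were among the 12 that chose these genes. Fitting all 48 samples together left 348 calls, 255 of them widened, while a fit of 40 samples that leaves out the day 4 samples and day 6 number 3 gave 4419. Leaving out 1 of the 12 libraries gave 2721 to 4601 calls, with 2873 without duodenum day 0 replicate 2 and 2721 without duodenum day 8 replicate 1; without the former, 1279 genes differed between regions at birth.

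Most of the movement lay in the duodenum. Its own change from day 0 to day 8 was called for 10157 genes (53.7%; 27.9% rose and 25.8% fell) and that of the ileum for 5668 (30%; 14% rose and 16% fell), and the duodenum's change was the larger in 3804 of the 4499 interaction genes (84.6%). Among the 1505 genes that widened in the direction of ileum, 1335 fell in duodenum and 165 rose in ileum. Among the 2258 that widened in the direction of duodenum, 1988 rose in duodenum and 298 fell in ileum. Opposite called changes in the regions were found for 158 genes, 91 that rose in duodenum and fell in ileum and 67 that did the reverse.

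**Figure D2:**
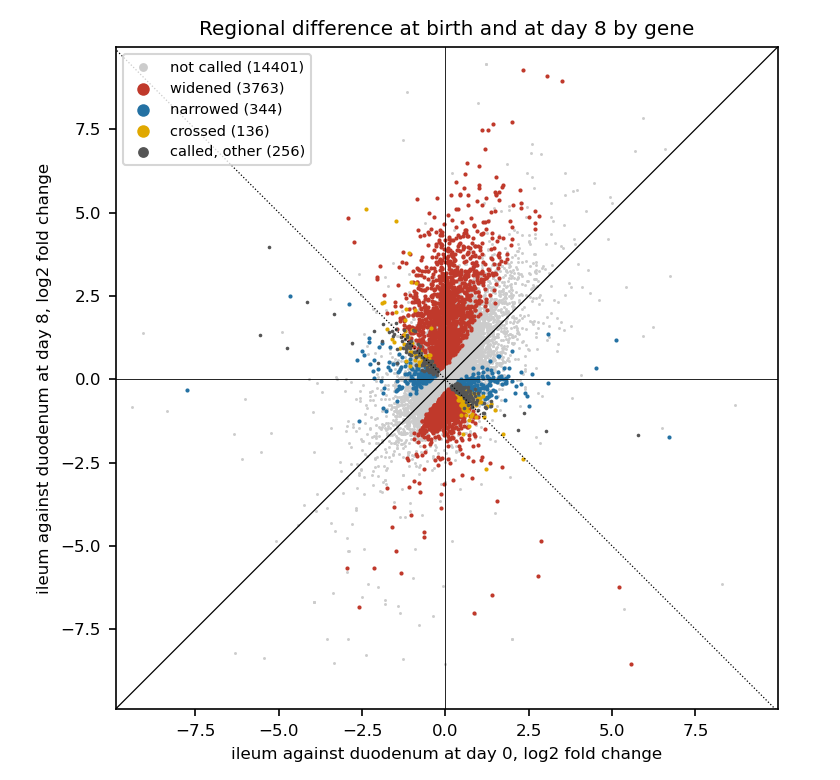
Log2 fold change of ileum against duodenum at day 0 (horizontal) and at day 8 (vertical) for 18900 genes, coloured by class of interaction call; the solid diagonal marks equal differences and the dotted one equal size with opposite sign. Red widened genes (3763) fan out vertically, and blue narrowed genes (344) lie along the horizontal axis.

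Some genes of bile acid handling widened toward ileum, and 8 of 10 fell in duodenum and 6 of 10 in ileum, against 25.8% and 16% of all genes. In this list 4 of 10 genes were called in the direction of ileum and 0 in that of duodenum, with a median interaction of 0.725 against -0.053 over all genes tested, and without the 3 doubtful libraries it was 4 and 1 of 10. Fabp6 (chr11:43596049-43601540, minus strand, mm10, GENCODE M21), whose product carries bile acids through ileal cells, had 4.74, 4.64 and 1.53 CPM in duodenum at birth and 0.0218, 0.0633 and 0.0681 at day 8. In ileum it had 21.9, 40.4 and 25.1 CPM at birth and 43.4, 17.9 and 28.2 at day 8. In bulk tissue, fewer cells of a type and less RNA per cell cannot be told apart. The regions did not overlap at either age, and the gap widened as duodenum fell while the ileal values of both ages overlapped. Its interaction was 6.05 (SE 0.89, adjusted p = 0.00169), a size made imprecise by day 8 duodenal values near 0. Its regional difference grew from 3.04 to 9.09 on the log2 scale, the latter with the same limit. In samples of other ages the difference was 7.65 at day 2 and 10.46 at week 2.

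Fgf15 (chr7:144896531-144900953, plus strand), the hormone by which ileum tells the liver to make less bile acid, stood at 24.8, 16.6 and 4.07 CPM in newborn duodenum and 0.74, 2.22 and 1.79 at day 8, against 44.8, 25.8 and 66.2 in newborn ileum and 74.2, 86.4 and 75.2 at day 8. All duodenal values at day 8 were below all at birth, and the regional difference at birth was not called (adjusted p = 0.112). Its interaction was 4.02 (SE 0.89, adjusted p = 0.0129). The call was lost without both day 0 libraries numbered 1 (3.47, adjusted p = 0.0542). Abcc2, an export pump for conjugates at the brush border, fell in both regions and further in duodenum (interaction 1.40, SE 0.38, adjusted p = 0.0207), a call lost without duodenum day 8 replicate 1 (adjusted p = 0.05485) or ileum day 0 replicate 2 (0.0502). Slc51a, a subunit of the transporter that passes bile acids to the blood, was called at 0.67 (SE 0.21, adjusted p = 0.0328), a call lost when any of 8 of the 12 libraries was left out. Slc10a2, the apical bile acid uptake carrier, had 3.83 CPM in newborn ileum and 0.83 in newborn duodenum and fell in both regions. Its regional difference was 2.20 at birth and 2.36 at day 8, with an interaction of 0.16 (SE 0.47, adjusted p = 0.827), and the receptor gene Nr1h4 (FXR) had 0.37 (SE 0.14, adjusted p = 0.0784).

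Some genes for the uptake of whole milk protein also widened toward ileum. Of 20 genes for protein uptake and lysosomes, 6 were called, all in the direction of ileum, with a median of 0.413. Over all genes tested 9.7% were called in that direction. With all 48 samples in the fit 1 of the 20 was called. At day 8, 17 of the 20 were higher in ileum, against 7 at birth, and 18 of 20 fell in duodenum and 13 of 20 in ileum. Over all genes 22.9% were higher in ileum at day 8 and 6.09% at birth, and 25.8% fell in duodenum and 16% in ileum. At birth 0 were higher in ileum and 1 in duodenum without the 3 doubtful libraries. Lrp2 (chr2:69424340-69586065, minus strand), which encodes the giant endocytic receptor megalin, had 32.2, 26.1 and 14.6 CPM in duodenum at birth and 0.326, 0.317 and 0.772 at day 8. Its ileal values were 35.4, 34.5 and 21.3 at birth and 26.5, 27.7 and 30.8 at day 8. Newborn regions overlapped, and at day 8 every duodenal library was far below every ileal one. The interaction was 5.59 (SE 0.48, adjusted p = 8.17e-05).

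Cubn, the cubilin receptor that works with megalin, fell in both regions, from 911 to 171 CPM in duodenum and from 1341 to 634 in ileum (interaction 1.33, SE 0.28, adjusted p = 0.00642). Dab2, the adaptor that links these receptors to clathrin, went from 347 ± 54.9 to 125 ± 13.2 CPM (SD, n = 3) in duodenum, while ileum had 539 ± 73.6 and 468 ± 55.6 (interaction 1.27, SE 0.21, adjusted p = 0.00186). Ctsl, a lysosomal protease, rose in ileum from 999, 736 and 1022 to 1585, 1733 and 1728 CPM, and duodenum went from 1315, 831 and 652 to 563, 628 and 749, an interaction of 1.40 (SE 0.30, adjusted p = 0.00701). For Mcoln3, an endolysosomal calcium channel, the interaction was 0.77 (SE 0.17, adjusted p = 0.00638), with ileum and duodenum overlapping at birth. Fcgrt, the receptor that carries maternal antibody across the gut wall, was higher in duodenum at both ages, with ileum against duodenum log2 differences of -0.76 and -0.69, and its interaction was 0.06 (SE 0.22, adjusted p = 0.858).

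Most genes of cholesterol synthesis and uptake narrowed. At birth 19 of its 21 genes were higher in ileum and 0 in duodenum, and at day 8 it was 3 and 1. For all genes it was 6.09% and 6.58% at birth, and 22.9% and 28.8% at day 8. Of the 21, 16 were called by the interaction in the direction of duodenum and 0 in that of ileum, with a list median of -1.02, 15 of them in the narrowed class and Idi1 crossed. In ileum 19 of 21 fell, against 16% of all genes. In duodenum 6 fell and 4 rose, against 25.8% and 27.9%. Without the 3 doubtful libraries 12 were called in the direction of duodenum and 1 in that of ileum, and without both day 0 libraries numbered 1 it was 12 and 0. At birth 12 of 21 were higher in ileum without the 3 doubtful libraries and 15 without the number 1 pair, with 0 higher in duodenum in either.

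Promoter sequences of 4 of these genes are shown because the members moved together. RefSeq promoter records (GRCm38.p6) were matched for 13 of the 21 genes, and the letters CCAAT, the core of the box bound by NF-Y, occurred on either strand within the 250 bases before the start in 13 of 13. Over all genes in the table the share with CCAAT was 37.5%. The sterol element letters TCACNCCAC, also on either strand, occurred in 1 of 13, against 1.22% of all genes. Capitals mark CCAAT, which reads ATTGG where it lies on the opposite strand, and in Hmgcs1 also the match to the sterol element; the marked stretches do not overlap. Each run reads 5′ to 3′ on the gene's strand and ends just before its start.
Idi1, chr13:8885356-8885605, plus strand: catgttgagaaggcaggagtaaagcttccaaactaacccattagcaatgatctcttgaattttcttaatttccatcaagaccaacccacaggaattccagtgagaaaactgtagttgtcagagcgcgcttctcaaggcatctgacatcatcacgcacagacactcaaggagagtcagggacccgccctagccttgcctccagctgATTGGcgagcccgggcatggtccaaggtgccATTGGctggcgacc
Cyp51, chr5:4104698-4104947, minus strand: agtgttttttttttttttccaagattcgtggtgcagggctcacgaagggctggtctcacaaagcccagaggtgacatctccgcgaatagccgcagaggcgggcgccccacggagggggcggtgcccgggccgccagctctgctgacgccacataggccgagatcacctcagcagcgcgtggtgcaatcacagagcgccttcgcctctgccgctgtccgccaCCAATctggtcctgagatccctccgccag
Mvk, chr5:114444019-114444268, plus strand: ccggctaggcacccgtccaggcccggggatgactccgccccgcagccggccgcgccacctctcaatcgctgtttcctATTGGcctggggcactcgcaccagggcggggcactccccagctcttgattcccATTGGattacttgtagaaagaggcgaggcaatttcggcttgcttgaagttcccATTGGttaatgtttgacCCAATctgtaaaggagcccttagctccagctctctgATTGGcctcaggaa
Hmgcs1, chr13:119690101-119690350, plus strand: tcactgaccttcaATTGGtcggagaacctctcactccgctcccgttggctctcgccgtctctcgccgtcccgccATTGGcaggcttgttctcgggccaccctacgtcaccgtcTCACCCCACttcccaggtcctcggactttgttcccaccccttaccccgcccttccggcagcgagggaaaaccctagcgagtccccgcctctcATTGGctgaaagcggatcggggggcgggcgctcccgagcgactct
The nearest box lay 14 bases before the start in Idi1 and Mvk, 29 in Cyp51 and 45 in Hmgcs1, counted from the first base of the box.

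Cyp51 (chr5:4081145-4104746, minus strand), the lanosterol demethylase, had 69.2, 76.2 and 65.5 CPM in newborn duodenum and 222, 139 and 167 in newborn ileum. At day 8 duodenum had 77.6, 74.5 and 68.6 and ileum 67.4, 78.9 and 65.4. Every newborn ileal value was above every other value of the gene, and the regions overlapped at day 8. Its interaction was -1.38 (SE 0.21, adjusted p = 0.00133), and the regional difference went from 1.32 to -0.06.

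Fdps, which makes farnesyl diphosphate, fell in ileum from 179.8 ± 52.5 to 38.9 ± 5.34 CPM (SD, n = 3), an interaction of -1.64 (SE 0.28, adjusted p = 0.00247). Sqle, squalene epoxidase, rose in duodenum from 29.2 to 49 CPM and fell in ileum from 81 to 46.8 (interaction -1.54, SE 0.32, adjusted p = 0.00651), as did Hmgcs1, from 111 to 158 and from 243 to 162 (interaction -1.11, SE 0.25, adjusted p = 0.00878). The call of Sqle was lost without duodenum day 0 replicates 2 and 3 (-1.25, adjusted p = 0.0654), not without all 3 doubtful libraries (adjusted p = 0.0332). Mvk, mevalonate kinase, was called at -1.81 (SE 0.33, adjusted p = 0.00303) and Srebf2, which encodes SREBP2, at -1.06 (SE 0.23, adjusted p = 0.00611). Insig1, which holds SREBP2 back, was called at -1.0 (SE 0.25, adjusted p = 0.0121).

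Idi1, which makes dimethylallyl diphosphate, crossed: newborn ileum had 138, 95.5 and 95.7 CPM against 56.1, 62.2 and 54 in duodenum, and at day 8 duodenum had 138, 141 and 132 against 102, 102 and 75 in ileum. Neither age showed overlap between regions. Its regional difference went from 0.93 to -0.56, an interaction of -1.49 (SE 0.22, adjusted p = 0.00106). Npc1l1, the brush border carrier that absorbs dietary cholesterol, was not called (interaction 0.75, SE 0.30, adjusted p = 0.0787; adjusted p = 0.0206 without duodenum day 0 replicate 3 and 0.033 without ileum day 8 replicate 1), with 172 CPM in duodenum and 313 in ileum at day 8.

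Proliferation genes rose in both regions, and 13 of 20 rose more in duodenum. All 20 cell cycle and replication genes rose in duodenum and all 20 in ileum, all 20 were higher in duodenum at day 8 against 2 at birth, and the interaction calls were all in the direction of duodenum (list median -0.851). Over all genes tested 14.1% were called in that direction, and 27.9% rose in duodenum and 14% in ileum. The share of all genes higher in duodenum was 6.58% at birth and 28.8% at day 8. Without the 3 doubtful libraries fewer of the 20 were called, as were fewer of all genes, and the list median was -0.754. Tyms, thymidylate synthase, had 17.5, 18 and 25.7 CPM in newborn duodenum and 17.6, 17.3 and 14.8 in newborn ileum, values that overlapped. By day 8 it had 153, 162 and 137 in duodenum and 60.2, 53.2 and 40.8 in ileum, with no overlap, an interaction of -1.25 (SE 0.23, adjusted p = 0.00355). Plk1, a mitotic kinase, reached 60.9 ± 2.68 CPM in duodenum and 22.5 ± 0.617 in ileum (SD, n = 3) from 15.7 and 13.9 (interaction -1.26, SE 0.19, adjusted p = 0.00136). Mcm7, a subunit of the replicative helicase, was called at -1.06 (SE 0.21, adjusted p = 0.00419) and Aurkb, another mitotic kinase, at -1.03 (SE 0.17, adjusted p = 0.00217).

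Of 11 crypt stem cell genes, 5 were called in the direction of duodenum and 0 in that of ileum (median -0.843), and 3 without the 3 doubtful libraries. Smoc2 rose from 8.15, 9.19 and 14 to 82.5, 95.1 and 94.5 CPM in duodenum and from 7.06, 8.23 and 12.6 to 33.4, 40.1 and 35.9 in ileum, an interaction of -1.15 (SE 0.30, adjusted p = 0.0169). Axin2, a target of Wnt signalling, was called at -0.92 (SE 0.20, adjusted p = 0.00696) and Rnf43, which dampens that signalling, at -0.84 (SE 0.19, adjusted p = 0.00849); neither was called without the 3 doubtful libraries (adjusted p = 0.0955 and 0.153). Lgr5, the stem cell receptor gene, rose in duodenum by 2.85 and in ileum by 2.29 on the log2 scale and was not called by the interaction (-0.56, SE 0.32, adjusted p = 0.22), but was without duodenum day 0 replicate 3 (adjusted p = 0.02246) and without the 3 doubtful libraries (-1.18, adjusted p = 0.0333). Olfm4, another crypt base gene, was higher in duodenum at both ages, with an ileum against duodenum difference of -1.23 at birth and -1.40 at day 8 (interaction -0.18, SE 0.25, adjusted p = 0.64). 

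**Figure D3:**
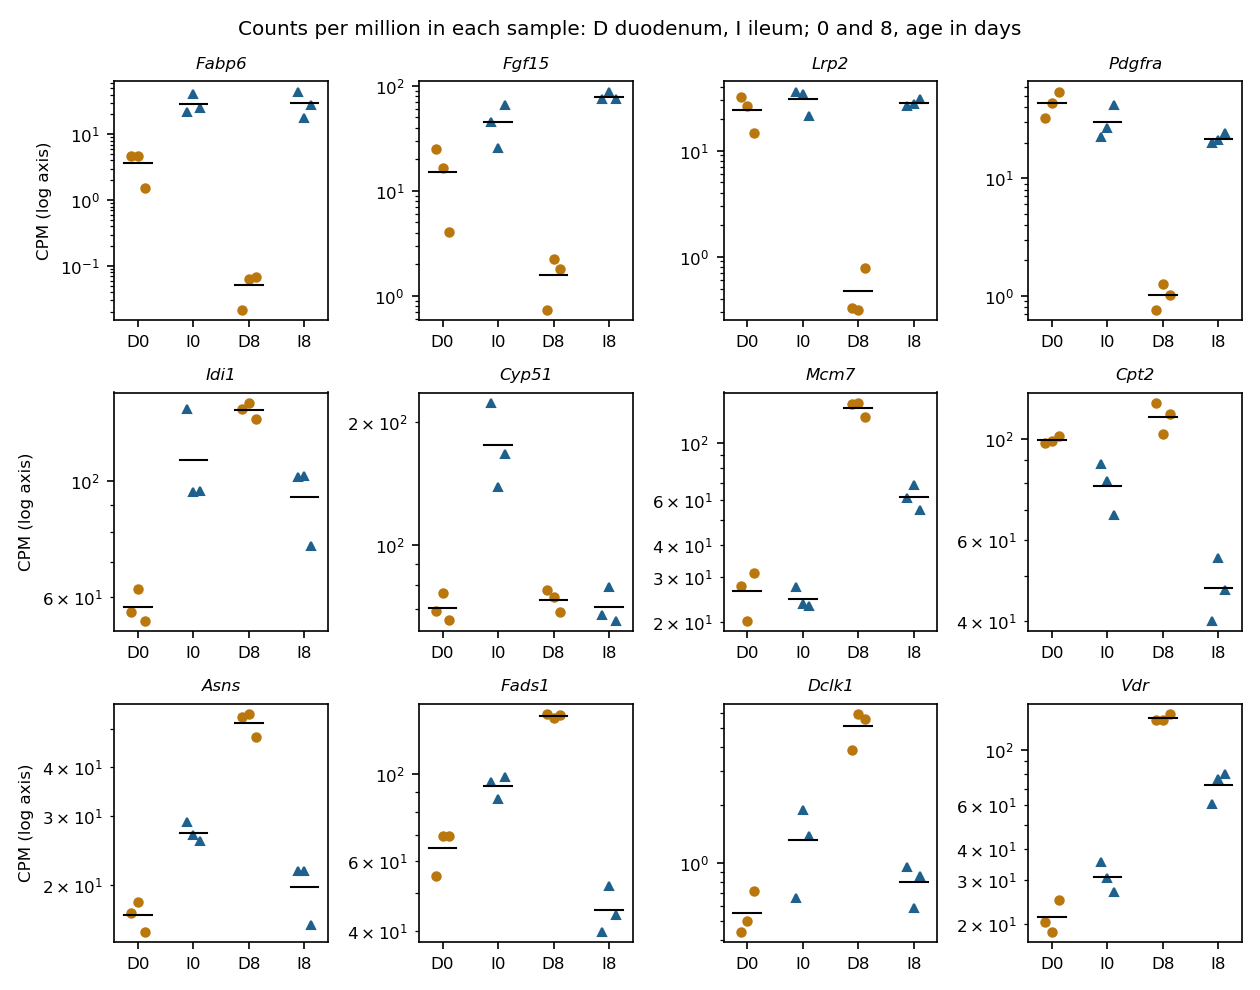
CPM on a log axis for 12 genes in each of the 12 samples, as points (circles duodenum, triangles ileum) in the order duodenum day 0, ileum day 0, duodenum day 8, ileum day 8, with the mean of 3 samples as a line. By these means Fabp6, Fgf15, Lrp2 and Pdgfra are lowest in day 8 duodenum; Cyp51 is highest in newborn ileum; Idi1, Asns, Fads1, Dclk1 and Vdr have the higher mean in ileum at birth and in duodenum at day 8.

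Some genes of fat oxidation widened toward duodenum. Of 17 genes of ketone body synthesis and fatty acid oxidation, 10 were higher in duodenum at birth and 14 at day 8, and 0 were higher in ileum at either age. The share of all genes higher in duodenum rose as well, from 6.58% at birth to 28.8% at day 8. By the interaction 7 of the 17 were called, all in the direction of duodenum (median -0.354), against 14.1% of all genes. Cpt2, which brings fatty acids into mitochondria, had 98.3, 98.9 and 102 CPM in newborn duodenum and 119.9, 102 and 113 at day 8. Ileum had 88, 80.9 and 68.2 at birth and 39.99, 54.9 and 46.7 at day 8. Duodenum was above ileum in every library of each age, and ileum fell (interaction -0.91, SE 0.18, adjusted p = 0.00451), and Acadvl and Bdh1 were called at -0.65 and -0.75 (adjusted p = 0.00499 and 0.0107). At birth 3 of 17 were higher in duodenum without the 3 doubtful libraries, and without duodenum day 0 replicates 2 and 3 alone it was 0. Without the 3 libraries fewer of the 17 were called by the interaction, as were fewer of all genes, and the list median was -0.449. Cpt2, Acadvl and Bdh1 were not called there, with interactions of -0.87, -0.66 and -0.67.

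Brush border peptidases fell or were not called over the week in both regions. Of 12 peptidases, 5 were called in the direction of ileum and 1 in that of duodenum (median 0.513), and 9 fell in duodenum and 6 in ileum; without the 3 doubtful libraries 4 and 0 were called. Enpep, aminopeptidase A, had 554, 435 and 223 CPM in newborn and 78.9, 75.8 and 70.9 in day 8 duodenum, against 1026, 839 and 826 and 590.0, 658 and 577 in ileum. Ileum was higher in every library of both ages, and the gap grew from 1.15 to 3.02 (interaction 1.87, SE 0.34, adjusted p = 0.00304). Ggt1 went in the opposite direction, with 13.3, 9.33 and 11 CPM in duodenum and 1.92, 2.28 and 2.57 in ileum at day 8 after a fall in both (interaction -1.42, SE 0.30, adjusted p = 0.00646, and -1.38, adjusted p = 0.0504 without the 3 doubtful libraries). Anpep, aminopeptidase N, narrowed, from -0.57 at birth to 0.19 at day 8 (interaction 0.76, SE 0.20, adjusted p = 0.017), a call lost without duodenum day 8 replicate 2 (adjusted p = 0.05172) and without the 3 doubtful libraries (0.0785).

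Among 14 amino acid and peptide transporters 5 were called in the direction of ileum and 2 in that of duodenum, against 3 and 2 without the 3 doubtful libraries. Slc15a1, the peptide carrier PEPT1, fell in both regions and narrowed from -0.61 to 0.21 (interaction 0.82, SE 0.16, adjusted p = 0.00375). Slc6a19, the main neutral amino acid carrier of the brush border, widened, with 191 CPM in day 8 duodenum and 322 in ileum (interaction 0.84, SE 0.17, adjusted p = 0.00507). Slc7a15 crossed: newborn duodenum had 7.15, 13.6 and 17.3 CPM against 4.84, 7.73 and 5.87 in ileum, and day 8 duodenum had 0.761, 0.781 and 0.977 against 4.68, 7.6 and 6.74 (interaction 3.97, SE 0.44, adjusted p = 0.000219), with the regions overlapping at birth. Slc1a1, a glutamate carrier, narrowed, rising in duodenum from 3.24, 3.37 and 3.69 to 16.7, 15.1 and 14.2 CPM while ileum had 13.8 and 14.9 (interaction -2.04, SE 0.36, adjusted p = 0.00259), and Slc1a5, a glutamine carrier, crossed at -1.34 (SE 0.20, adjusted p = 0.0011).

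Genes of serine and asparagine supply were among those named for the size or p of their interaction, Asns, Phgdh and Slc1a4 among them, and they form no list here. Asns (chr6:7675169-7693254, minus strand), asparagine synthetase, had 16.9, 18.1 and 15.1 CPM in newborn duodenum and 29, 26.8 and 25.8 in newborn ileum. At day 8 duodenum had 53.6, 54.6 and 47.9 and ileum 21.6, 21.7 and 15.7. The regions changed places with no overlap at either age, duodenum rising and ileum falling (interaction -2.11, SE 0.19, adjusted p = 6.26e-05). Phgdh, the first enzyme of serine synthesis, had 17.8 and 49.8 CPM at birth in duodenum and ileum and 72.1 and 38.2 at day 8 (interaction -2.40, SE 0.34, adjusted p = 0.00115). Slc1a4, a carrier of serine and alanine, was called at -2.50 (SE 0.38, adjusted p = 0.00124), and Pck2, a mitochondrial enzyme of the sugar metabolism list that makes phosphoenolpyruvate, at -1.33 (SE 0.19, adjusted p = 0.000795).

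Fads1, a desaturase that makes polyunsaturated fatty acids such as arachidonate, had the smallest p in the direction of duodenum. It rose in duodenum from 55, 69.5 and 69.7 to 141, 138 and 141 CPM and fell in ileum from 95.4, 86.2 and 97.8 to 39.8, 51.9 and 43.9, an interaction of -2.16 (SE 0.17, adjusted p = 2.2e-05). In samples of other ages it was higher in duodenum too, by a log2 difference of -0.64 at day 2 and -1.21 at week 2 (ileum against duodenum). Others named for small p in that direction were Cd81, a tetraspanin (interaction -1.20, SE 0.13, adjusted p = 0.000224), and Wls, the carrier that Wnt proteins need for secretion (-1.30, SE 0.15, adjusted p = 0.000228). Among the largest falls relative to duodenum were the carboxylesterases Ces1e (-2.75) and Ces2g (-2.28), which have near-identical relatives among which estimated counts can be shared, and Pir (-2.28), with adjusted p of 0.00127, 0.0078 and 0.0016. Ces2g was not called without the 3 doubtful libraries (-1.73, adjusted p = 0.0753). Tmem254c, one of several copies of a gene, had -3.70 (SE 1.01, adjusted p = 0.0263), a call lost when any of 5 libraries was left out.

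Some tuft cell genes parted toward duodenum. Of 7 tested, 5 rose in duodenum and 1 in ileum, and by the interaction 3 were called, all in the direction of duodenum, also without the 3 doubtful libraries, and all 7 were higher in duodenum at day 8 against 0 at birth. With all 12 libraries, 6.58% of all genes were higher in duodenum at birth and 28.8% at day 8. Dclk1, the standard tuft cell marker, had 0.443, 0.50 and 0.721 CPM in newborn duodenum and 0.665, 1.9 and 1.39 in newborn ileum, then 3.87, 5.91 and 5.57 and 0.958, 0.587 and 0.857 at day 8 (interaction -3.90, SE 0.52, adjusted p = 0.000648). Trpm5, a taste-type ion channel of these cells, had 2.81, 2.93 and 2.32 CPM in day 8 duodenum and 0.789, 0.138 and 0.428 in ileum (interaction -4.33, SE 1.00, adjusted p = 0.00947), and Avil was called at -3.23 (SE 0.70, adjusted p = 0.00664). The newborn regions overlapped for all 3, all were at low level, and at day 8 every duodenal value was above every ileal one. Vdr, the vitamin D receptor, also crossed and at higher level, with 20.4, 18.6 and 25 CPM and 35.5, 30.6 and 26.9 at birth in duodenum and ileum and 132, 131 and 139 and 60.8, 76.5 and 79.9 at day 8, an interaction of -1.42 (SE 0.20, adjusted p = 0.000795).

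Among the factors that set position, Pdx1 had 14.3, 14.2 and 14.3 CPM in day 8 duodenum and 0.282, 0.0691 and 0.143 in ileum, and at birth 2.41, 13 and 24.7 and 0.111, 6.59 and 0.67. Ileum day 0 replicate 2 was set apart partly by this gene, so it is given here by its values and the test with all 12 libraries alone, in which it was not called (-4.03, SE 1.98, adjusted p = 0.169). Gata4 had 114, 111 and 115 CPM in newborn duodenum, 34.5, 69.8 and 61.2 in newborn ileum, 127, 124 and 123 and 30.02, 40.3 and 36.7 at day 8 (interaction -0.76, SE 0.27, adjusted p = 0.0595; adjusted p = 0.001951 without ileum day 0 replicate 1). Of the 15 patterning factors, 3 were called in the direction of duodenum and 2 in that of ileum, counts near the shares of all genes tested, 14.1% and 9.7%. Fewer were called without the 3 doubtful libraries. Hnf4a, a factor that drives enterocyte genes, rose in duodenum from 369.6, 342 and 351 to 852, 817 and 840.2 CPM against 465, 414 and 361 and 411, 521 and 466 in ileum (interaction -1.07, SE 0.17, adjusted p = 0.00145). Cdx2, the master factor of intestinal fate, rose in duodenum from 92.4 to 139 CPM and was called at -0.84 (SE 0.21, adjusted p = 0.0141), but not without the 3 libraries (adjusted p = 0.172).

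Hox genes, the posterior identity code, were expressed at low level in both regions. Of 22 tested of 39, 7 were higher in ileum at birth and 15 at day 8, and 2 were higher in duodenum at day 8. The shares of all genes rose too, from 6.09% higher in ileum at birth to 22.9% at day 8. At day 8, 28.8% of all genes were higher in duodenum. The interaction was called for 5, all in the direction of ileum (median 0.744), and for 3 without the 3 doubtful libraries, where 2 were higher in ileum at birth. Hoxb5 had 0.915, 0.455 and 0.919 CPM in newborn and 0.174, 0.232 and 0.159 in day 8 duodenum, against 2.55, 1.94 and 2.61 and 1.46, 2.18 and 2.57 in ileum (interaction 1.85, SE 0.48, adjusted p = 0.0154). Hoxb3 was called at 1.60 (SE 0.35, adjusted p = 0.00714), Hoxd8 at 2.61 (SE 0.60, adjusted p = 0.00865) and Hoxb9 at 4.72 (SE 0.97, adjusted p = 0.0052), each having fallen in duodenum; none of these 3 was called without the 3 doubtful libraries. Markers of stroma moved with them: the summed level of 8 fibroblast markers was 135 to 233 CPM in newborn and 25.04 to 74.2 in day 8 duodenum, against 249 to 377 and 238 to 488 in ileum, and their part in the Hox result was not tested.

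Of the 8 fibroblast markers 4 were called in the direction of ileum and 0 in that of duodenum, all 8 were higher in ileum at day 8 against 1 at birth, and without the 3 doubtful libraries 1 was called and 0 were higher in ileum at birth. With all 12 libraries, 6.09% of all genes were higher in ileum at birth and 22.9% at day 8. Pdgfra (chr5:75152292-75198215, plus strand), the growth factor receptor of gut fibroblasts, had 32.8, 43.9 and 53.8 CPM in newborn duodenum and 0.761, 1.25 and 1.02 at day 8. Ileum had 22.4, 26.7 and 41.8 and 19.8, 21.1 and 24.2. The regions overlapped at birth, and at day 8 every ileal value was far above every duodenal one (interaction 4.94, SE 0.36, adjusted p = 2.2e-05, and 4.50, adjusted p = 0.000772 without the 3 libraries). Thbs1, a matrix protein gene, fell in both regions, from 49.8 to 2.1 CPM in duodenum and from 72.3 to 31.7 in ileum (interaction 3.38, SE 0.25, adjusted p = 2.2e-05). Smooth muscle markers gave 3 of 10 in the direction of ileum and 0 in that of duodenum, and 1 and 0 without the 3 doubtful libraries. Epithelial markers gave 1 and 5 of 10, and 1 and 1 without the 3 libraries. Their summed level was 5151 to 5328 CPM in newborn and 5736 to 6192 in day 8 duodenum against 4867 to 5900 and 4412 to 5145 in ileum.

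Some immune genes gained in ileum relative to duodenum. Of 15 interferon-stimulated genes 7 were called, all in the direction of ileum (median 1.04), and 7 also without the 3 doubtful libraries; 11 of 15 fell in duodenum. Ifit3 crossed, from 66.3, 63 and 61.3 CPM in newborn duodenum and 36.3, 49.1 and 26 in newborn ileum to 20.2, 18.7 and 20.5 and 29.3, 29.7 and 25.5 at day 8 (interaction 1.29, SE 0.24, adjusted p = 0.00357). Stat2, which carries the interferon signal, fell in duodenum from 119 to 40.6 CPM and in ileum from 138 to 97.8 (interaction 1.06, SE 0.19, adjusted p = 0.00265), and Ifit1 was called at 1.11 (SE 0.22, adjusted p = 0.00483). MHC class II genes, which present antigen, were called for 4 of 7 in the direction of ileum and for 0 without the 3 doubtful libraries. H2-Aa had 5.13, 8.73 and 12.7 and 2.44, 3.42 and 5.89 CPM at birth in duodenum and ileum and 5.35, 5.51 and 7.02 and 13.3, 11.4 and 9.51 at day 8 (interaction 2.10, SE 0.47, adjusted p = 0.00838, and 1.26, adjusted p = 0.131 without the 3 libraries). Leukocyte markers were called for 5 of 11, all in the direction of ileum, and for 1 without the 3 libraries; their summed level was 99.7 to 126 CPM in newborn and 68.4 to 80.0 in day 8 duodenum, 76.8 to 97.1 in newborn and 126 to 146 in day 8 ileum. Their part in the immune genes' results was not tested.

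Antimicrobial genes of Paneth cells, which mature at the crypt base after birth, mostly rose in both regions. Of 18 genes, 12 rose in duodenum and 12 in ileum, and 5 were called by the interaction, all in the direction of ileum, with 1 called without the 3 doubtful libraries. Ang4 had 2.52, 3.18 and 3.08 CPM in newborn duodenum, 1.07, 1.86 and 1.46 in newborn ileum, 6.35, 8.09 and 9.63 in day 8 duodenum and 19.4, 10.02 and 12.9 in day 8 ileum, so that it crossed (interaction 1.81, SE 0.37, adjusted p = 0.00539). Defa36, an alpha-defensin gene, was at 0 in all 3 newborn ileal libraries and at 0, 0.182 and 0.27 CPM in newborn duodenum, and reached 34.7, 36.2 and 26.2 in duodenum and 103, 68.1 and 74.1 in ileum. Its interaction was called at 6.91 (adjusted p = 0.016, and 0.07948 without duodenum day 0 replicate 3). The call was also lost with no low-count filter. Without the 3 doubtful libraries the interaction was 1.37. Its fitted size depends on the prior count, and defensins are near-identical copies among which reads can be split. Lyz1, the Paneth lysozyme gene, rose from 3.37 to 54.6 CPM in duodenum and from 2.95 to 83 in ileum and was not called (0.81, SE 0.35, adjusted p = 0.108; adjusted p = 0.03362 without ileum day 0 replicate 2). Reg3b instead fell in duodenum, from 4.1, 11.6 and 15.6 to 1.02, 0.697 and 1.18 CPM, with 14.7, 11.3 and 4.33 and 8.17, 5.91 and 11.1 in ileum (interaction 3.17, SE 0.74, adjusted p = 0.012, and 1.96, adjusted p = 0.133 without the 3 libraries).

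Among the largest interactions in the direction of ileum were also genes of none of the groups above. Fga (chr3:83026076-83033627, plus strand) and Fgb, neighbouring genes of the clotting protein fibrinogen best known from liver, fell in both regions. Fga had 23.8, 27.2 and 18.3 CPM in newborn and 0.0218, 0.0633 and 0.0227 in day 8 duodenum, and 95.2, 80.5 and 103 and 6.31, 10.3 and 8.59 in ileum. Day 8 duodenum was near 0, and the regions did not overlap at either age (interaction 5.72, SE 0.45, adjusted p = 2.2e-05). Fgb had 12.4, 8.82 and 3.87 CPM in newborn and 0, 0 and 0.0227 in day 8 duodenum, and 47.3, 32.5 and 45.6 and 6.59, 7.74 and 5.71 in ileum (interaction 6.94, SE 0.94, adjusted p = 0.000932), a fitted size that depends on the prior count, while liver markers as a list gave 1 of 5 called, Fgb itself. Clca4a, of a family of chloride channel regulators, rose in ileum from 1.59, 2.15 and 1.13 to 29.7, 23.6 and 25.1 CPM and fell in duodenum from 7.26, 3.46 and 2.63 to 1.02, 1.01 and 0.886 (interaction 6.22, SE 0.49, adjusted p = 2.2e-05). Lgals3, galectin 3, fell in duodenum from 58.3, 59.5 and 58.1 to 11.2, 12.8 and 13.3 CPM with ileum at 69, 50.9 and 63.1 and 64.7, 58.1 and 74.8 (interaction 2.35, SE 0.18, adjusted p = 2.2e-05). Nts, the ileal hormone neurotensin, rose in ileum and fell in duodenum (interaction 1.82, SE 0.34, adjusted p = 0.00392), 1 of 3 called among 19 enteroendocrine genes, the others being in the direction of duodenum. Over all genes tested 23.8% were called.

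Genes that narrowed outside cholesterol synthesis did so by different routes. Chp2, a cofactor of sodium-proton exchange, had 83.1, 107 and 129 CPM in newborn duodenum against 18.1, 36.2 and 28.6 in ileum, and 75.6, 69 and 73.3 against 64.8, 75.3 and 68.2 at day 8; duodenum fell and ileum rose to one level (interaction 1.88, SE 0.29, adjusted p = 0.00151). Maoa, a monoamine oxidase, met from the other side, with 9.73, 7.64 and 6.7 and 29.7, 22.7 and 21.1 CPM at birth and 16.6, 16.1 and 15 and 18.7, 16.6 and 14.7 at day 8 (interaction -1.55, SE 0.24, adjusted p = 0.00133). Fgfbp1 rose in both regions, from 5.4 to 29.1 CPM in duodenum and from 14.6 to 23.3 in ileum (interaction -1.76, SE 0.22, adjusted p = 0.00041). Slc2a2, the glucose exporter GLUT2, narrowed by a fall in duodenum from 360.0, 449.6 and 433 to 226, 187 and 209.7 CPM, with 71.1, 178 and 92.7 and 163, 166 and 141 in ileum (interaction 1.46, SE 0.36, adjusted p = 0.0131). Of digestive genes that were regional at birth, some were not called by the interaction, among them Lct, the lactase gene (-0.77 at birth, -0.37 at day 8, interaction 0.41, SE 0.26, adjusted p = 0.276), and Mttp, needed for chylomicrons (-0.62, -0.46, interaction 0.16, SE 0.20, adjusted p = 0.571).

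**Figure D4:**
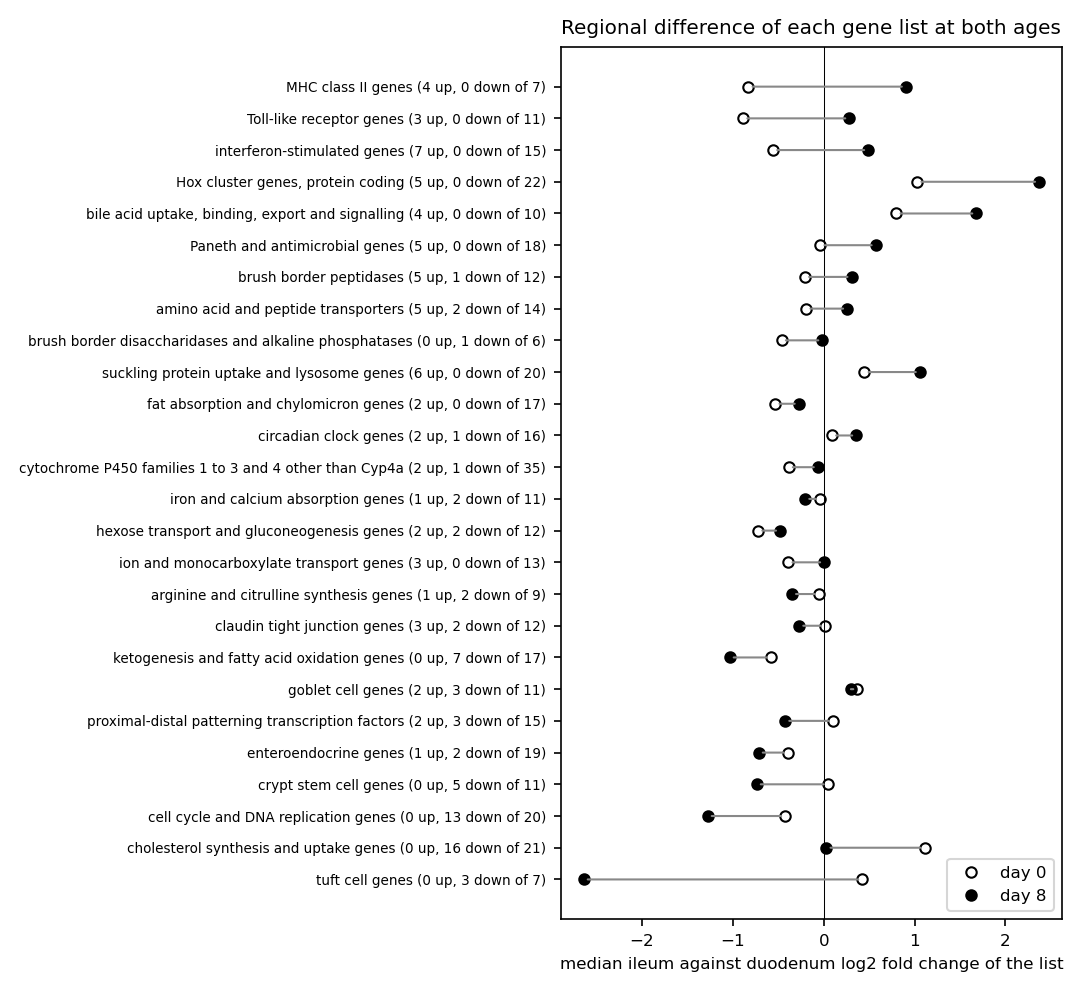
Median ileum against duodenum log2 fold change of each gene list at day 0 (open circles) and day 8 (filled circles), with the number of genes called by the interaction in the direction of ileum (up) or duodenum (down) of those tested, ordered by the median interaction. The cholesterol list moves from 1.11 to 0.029, and the Hox, bile acid and protein uptake lists move away from 0.

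Genes regional at later ages, defined in samples that the first-week comparison did not use, were followed back through the week. Those higher in ileum at week 2 by over 2-fold and called there (1702 tested) had a median difference of 0.564 at birth, 0.497 at day 2 and 1.67 at day 8. Those higher in duodenum at week 2 (845) had -0.642, -0.833 and -1.16. With week 4 as the reference the medians were 0.242, 0.255 and 1.09 for ileum (993 genes) and -0.421, -0.562 and -0.881 for duodenum (525 genes). Of the 1702 ileal genes 442 (26%) were called in that direction at birth and 1390 (81.7%) at day 8. Of the 845 duodenal genes it was 314 (37.2%) and 645 (76.3%). At those ages 14.9% (week 2) and 9.48% (week 4) of all genes tested met the same rule. Of the interaction genes that widened toward ileum, 1288 of 1368 (94.2%) had that sign at week 2, and so did 94.4% of all genes called higher in ileum at day 8. For those that widened toward duodenum it was 92.2% of 2248, and 92.2% for all genes called higher in duodenum at day 8. At day 2 it was 60.8% for the genes widened toward ileum against 70.3% of all called there at day 8, and 77.4% against 75.1% toward duodenum. At week 3 the widened genes had the sign in 88.7% toward ileum (88.9% of all called) and 88.1% toward duodenum (82.5%), and at week 4 in 82.9% (82.1%) and 89.3% (83.2%). Genes that narrowed from an ileal lead at birth numbered 185, with 15 of the cholesterol list among them. As a class they kept that sign in 79.4% of 175 at week 2 and in 64.6% at weeks 3 and 4. Those that narrowed from a duodenal lead kept it in 76.3% at week 2, 34.7% of 150 at week 3 and 53% at week 4. No share was taken for all genes with a lead at birth, so the values of narrowed genes have no background here.

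**Figure D5:**
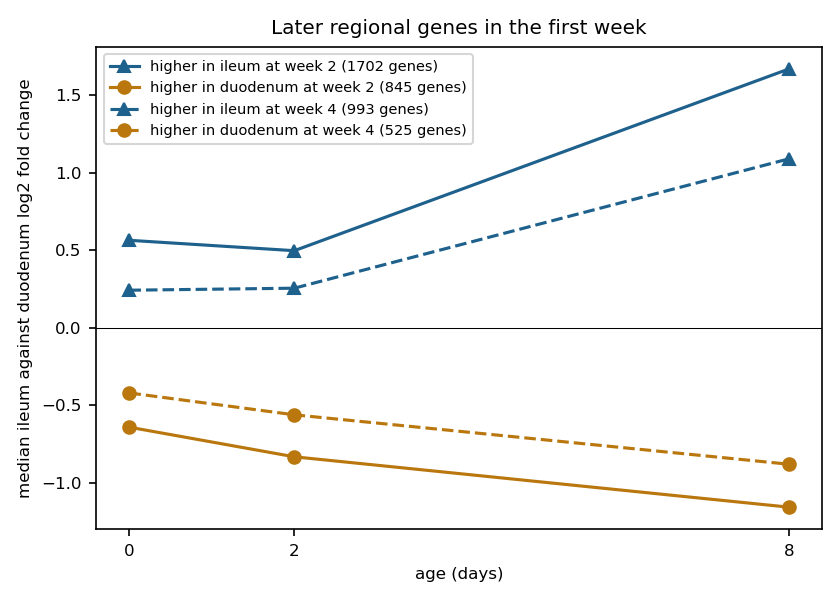
Median log2 fold change of ileum against duodenum at day 0, day 2 and day 8 (horizontal axis, age in days) for genes regional at week 2 (solid) or week 4 (dashed), triangles for genes higher in ileum and circles for genes higher in duodenum. Ileal genes stay near 0.5 or 0.25 to day 2 and reach 1.67 or 1.09 at day 8.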

How the data were processed

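Total RNA of whole-thickness bowel was sequenced. The deposited table holds estimated counts per gene (54532 genes, whole numbers, 48 samples), summarised by the authors with tximport according to the name they gave the table; STAR 2.6.1d, Salmon 0.14.2, DESeq2 1.30.1 and build mm10 stand in the submitters' processing notes with no role given. Gene symbols and positions came from GENCODE M21 (54409 identifiers matched). Groups and replicate numbers came from the labels. The 12 samples were fitted with edgeR 4.0.16 in R 4.3.3 (TMM scaling, filterByExpr on 4 groups, robust quasi-likelihood, 1 mean per group). Contrasts gave the interaction, both regional differences and both age changes. P-values were adjusted by Benjamini-Hochberg over 18900 genes and called under 0.05; standard errors are the log2 fold change over the square root of F. CPM are counts scaled to the TMM library size; distances used log2 CPM with a prior count of 2 over genes with a mean of at least 1. Later ages were fitted separately from the 6 samples of each. Alternatives were RLE scaling, no low-count filter, a mean count of at least 10, DESeq2 1.42.0, all 48 or 40 samples, a replicate block, and samples left out; the 2 that leave out the 3 doubtful libraries or the day 0 number 1 pair were chosen after seeing the data. On counts simulated for the interaction (18660 genes, 200 changed), 19% of 2-fold and 63% of 4-fold changes were recovered, with 2.38% of calls false. These counts were drawn gene by gene, without mixed or region-shifted newborn libraries, so 2.38% need not hold for the calls in the data. The comparison, gene lists and naming rule were chosen with earlier results of these data known: up to 4 called genes of smallest p per list and members needed to describe it, the 6 largest interactions and 4 smallest p in each direction, and the 4 narrowed genes of smallest p, among called genes whose log2 CPM averaged 1 or more, passing over predicted genes and pseudogenes. The authors' separately normalized tables were not used.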

Additional observations from a re-analysis of the deposited data

Results flagged for a closer look

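The change over the first week differed between ileum and duodenum, by the interaction test of edgeR, for 4499 of 18900 genes. Of the genes named for the size or p of their interaction rather than from a list, 7 changed in both regions in opposite directions, each change called on its own. In the direction of ileum these were Clca4a, with an interaction of 6.22 (duodenum -2.19, ileum 4.03 on the log2 scale), and Chp2, with 1.88 (duodenum -0.55, ileum 1.33). In the direction of duodenum, where duodenum rose and ileum fell, the interactions were -2.16 for Fads1, -2.11 for Asns, -2.50 for Slc1a4, -2.75 for Ces1e and -1.55 for Maoa. Without the 3 doubtful libraries all 7 kept their direction, with Clca4a at 7.23 and Maoa at -1.27, but the libraries left had also served to choose them. The list genes Mvk, Sqle and Hmgcs1 also rose in duodenum and fell in ileum, and Nts, Hoxb9 and Ifit1 did the reverse, each change called.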

How the results depend on the processing

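All 4499 interaction genes kept their direction without the 3 doubtful libraries, a fit on the other 9. Those 9 were among the 12 libraries that chose the genes, so this is no separate test of direction. At day 8 the median regional difference was larger than at birth under all 22 alternatives (0.56 to 0.744 against 0.274 to 0.428). With all 48 samples 348 genes were called by the interaction (136 toward ileum, 212 toward duodenum, 255 widened, 49 narrowed), 578 between regions at day 0 and 3156 over time in ileum. Without duodenum day 0 replicates 2 and 3 these were 2259 (1043, 1216, 1916 and 62) and 290 at day 0. Without the 3 doubtful libraries they were 1597 (862, 735, 1244 and 116) and 524. Without the day 0 number 1 pair 1564 were called toward duodenum, and with no low-count filter 1686, where 52.6% of calls were toward ileum; the median interaction was then 0.176. The cause of these moves was not tested. In the 48-sample fit the interaction was called for 0 genes of the bile acid, cell cycle, crypt stem cell, Hox, interferon and fat oxidation lists. Toward duodenum it was called for 8 of 21 cholesterol genes and 3 tuft cell genes. Fabp6, Fga, Thbs1, Lgals3, Dab2 and Ctsl were not called there, while Lrp2, Pdgfra, Cyp51 and Asns were. Of 120 named genes called with the 12 libraries, 29 were called in the same direction under all alternatives and 0 reversed.

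Leaving out 1 library gave 2721 to 4601 interaction calls, 1116 to 1978 toward ileum, 1584 to 2752 toward duodenum, 2295 to 3839 widened and 152 to 360 narrowed, and 1279 to 2685 calls at day 0. The lowest counts came without duodenum day 8 replicate 1 (all calls, those toward ileum, widened) or duodenum day 0 replicate 2 (those toward duodenum, narrowed, day 0). The interaction of Slc10a2, not called, ran from -0.085 to 0.544, with -0.002 without duodenum day 8 replicate 3 and -0.007 without ileum day 8 replicate 1. That of Fcgrt, not called, ran from -0.076 to 0.187, with -0.02 without ileum day 0 replicate 1 and -0.027 without ileum day 8 replicate 3, and was -0.094 without the number 1 pair. With the replicate number as a block 5236 genes were called, and of the genes named Fgf15 (3.95, adjusted p = 0.0871) and Reg3b (3.13, adjusted p = 0.0938) were not; same-numbered duodenum and ileum deviated together at day 0 with r of 0.314, 0.089 and 0.265 and at day 8 with -0.076, -0.026 and 0.039, so the numbers were not taken to pair the samples. Counts at low levels, as for the Hox and tuft cell genes, limit the precision of their values.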

Other observations

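Goblet cell genes, which make mucus, moved in both directions: of 11 tested 2 were called in the direction of ileum and 3 in that of duodenum, and 0 and 2 without the 3 doubtful libraries. Ccn3, a matricellular gene kept in that list, had 0.277, 0.591 and 0.757 CPM in newborn duodenum, 0.0369, 0.338 and 0.551 in newborn ileum, 0.0218, 0.0211 and 0 in day 8 duodenum and 0.282, 0.173 and 0.571 in day 8 ileum. Its interaction was 5.06 (SE 1.22, adjusted p = 0.011), a fitted size that depends on the prior count, as day 8 duodenum was near 0. Without the 3 libraries it was 4.18 and not called. Foxa3, a factor of secretory cells, leaned to duodenum (-1.12, SE 0.27, adjusted p = 0.0118).

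Ion transport genes gave 3 of 13 called in the direction of ileum and 0 in that of duodenum, and 2 and 0 without the 3 libraries. Slc26a6, an anion exchanger of the brush border, fell in duodenum from 43.5, 57.4 and 50.3 to 20.3, 15.8 and 17 CPM and in ileum from 41.4, 36.6 and 37.3 to 28.7, 28.3 and 29.6 (interaction 1.10, SE 0.18, adjusted p = 0.00163). Slc26a3, the chloride-bicarbonate exchanger, was in the narrowed class, with 307, 318 and 237 and 161, 246 and 159 CPM at birth in duodenum and ileum and 157, 142 and 149.5 and 209, 186 and 181 at day 8 (interaction 0.97, SE 0.23, adjusted p = 0.0103). Its lead changed sides, since every ileal value at day 8 was above every duodenal one, though that smaller difference was not called. Heph, which helps export iron to the blood, widened toward ileum (0.66, SE 0.14, adjusted p = 0.0067). Of 17 fat absorption genes 2 were called in the direction of ileum, a share near the 9.7% of all genes tested, and 0 in that of duodenum, against 14.1%. Those called were Apob, the chylomicron protein (0.92, SE 0.20, adjusted p = 0.00756), and Gpat3, an enzyme of triglyceride synthesis (1.05, SE 0.22, adjusted p = 0.00533).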
